A study of Mus musculus with 3 samples.

Results

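The 3 Nr4a genes, Nr4a1, Nr4a2 and Nr4a3, were followed in single cells of mouse subcutaneous fat. They are 3 of the 32285 genes counted. They were taken as a family, and with earlier results of these libraries known, in which Nr4a3 and Nr4a2 were among the leading genes of 1 cluster of Dpp4-type progenitors. Those results also held a group of progenitors named by Nr4a3 and Fosl1. CD31- CD45- cells, that is, cells other than endothelial cells and leukocytes, were sorted from the collagenase-digested stromal vascular fraction of the inguinal subcutaneous depot of 3 male wild-type C57BL/6J mice aged 8 weeks. Each mouse gave 1 droplet library, all mice belonged to 1 condition, and no treatment or genotype was compared, so the comparisons below are between classes of cells within the same animals. The fraction was digested at body temperature before sorting, so the levels are those of cells after tissue dissociation.

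Nr4a1 (Nur77), Nr4a2 (Nurr1) and Nr4a3 (Nor1) are orphan nuclear receptors. Their ligand-binding pocket is filled by bulky side chains, so their activity is set mainly by how much of them a cell makes. They are immediate early genes, transcribed within minutes of cAMP, calcium, growth factor, stress or cytokine signals without new protein synthesis. They bind DNA as monomers or as dimers of the family, and Nr4a1 and Nr4a2 also with retinoid X receptors. In fat and muscle they are known from the response to adrenergic stimulation, and in preadipocytes as part of the early burst of transcription that precedes differentiation.

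The promoters are shown because the family is a textbook target of CREB, ATF1 and CREM, factors that bind the cAMP response element. The bases are the 250 that precede the transcription start in RefSeq (GRCm38.p6), written 5′ to 3′ on the strand of the gene. Capitals mark TGACG, the core of the cAMP response element, or CGTCA, the same letters read on the other strand. Nr4a1 is taken from chr15:101266596-101266845 (plus strand), Nr4a2 from chr2:57124004-57124253 (minus strand) and Nr4a3 from chr4:48045055-48045304 (plus strand).
Nr4a1: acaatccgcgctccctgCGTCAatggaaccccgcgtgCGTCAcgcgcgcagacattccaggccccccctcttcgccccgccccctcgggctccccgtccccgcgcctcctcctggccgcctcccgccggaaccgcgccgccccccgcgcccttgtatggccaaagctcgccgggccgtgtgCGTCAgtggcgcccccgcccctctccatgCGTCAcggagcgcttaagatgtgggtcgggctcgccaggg
Nr4a2: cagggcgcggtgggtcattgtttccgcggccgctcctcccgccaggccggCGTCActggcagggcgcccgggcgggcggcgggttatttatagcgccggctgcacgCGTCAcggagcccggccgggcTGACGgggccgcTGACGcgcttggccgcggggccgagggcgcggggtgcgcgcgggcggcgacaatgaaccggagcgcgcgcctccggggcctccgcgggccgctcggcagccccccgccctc
Nr4a3: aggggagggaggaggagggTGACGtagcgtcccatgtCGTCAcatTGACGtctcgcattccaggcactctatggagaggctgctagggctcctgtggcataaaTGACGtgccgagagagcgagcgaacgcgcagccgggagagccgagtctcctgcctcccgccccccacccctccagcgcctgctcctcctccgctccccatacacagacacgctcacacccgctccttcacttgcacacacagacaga
Each of the promoters held 4 copies of these letters, and none of the copies overlapped. The copies lay between 233 and 36 bases before the start of Nr4a1, between 200 and 107 before that of Nr4a2 and between 231 and 143 before that of Nr4a3. In the window of 250 bases before to 50 after the start, 20.8% of 32817 RefSeq promoters held at least 1 copy and 0.232% held at least 4. The complete palindrome TGACGTCA, in which the letters of both strands overlap, was in 1.79% of promoters. The AP-1 site TGACTCA was in 5.20%, the Nr4a monomer site AAAGGTCA in 1.51% and the CArG box of serum response factor in 1.63%. None of these 4 was found in the windows of the 3 genes. The matches are letters only, and no binding was measured.

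In the GENCODE annotation of GRCm38, Nr4a1 (ENSMUSG00000023034) lies on chromosome 15 from 101254269 to 101274795, Nr4a2 (ENSMUSG00000026826) on chromosome 2 from 57106830 to 57124003 and Nr4a3 (ENSMUSG00000028341) on chromosome 4 from 48045153 to 48086447. No other annotated gene overlaps them. The RefSeq starts of Nr4a1 and Nr4a3 used for their promoters lie inside the GENCODE genes. The whole window of Nr4a1 and part of that of Nr4a3 are thus within the annotated gene.

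Cells with over 500 detected genes and under 5% mitochondrial UMIs (unique molecular identifiers, each standing for 1 captured transcript) were kept, which left 12984, 6414 and 15179 cells in mice 1, 2 and 3. Their median depth was 7392.5, 12192.5 and 6667 UMIs. They were gated on raw UMIs of genes outside the family. Progenitors, the class that corresponds to Dpp4+ adipocyte stem cells (ASCs), had at least 3 UMIs of Dpp4 and Pi16 together and at most 1 of Icam1 and Fabp4. Preadipocytes had at least 4 UMIs of Icam1 and Fabp4 and at most 1 of Dpp4. The authors split Icam1+ cells by Cd44 into pro-preadipocytes (high) and preadipocytes (PreAs, low). This gate did not use Cd44 and can hold both. Regulatory cells, the class that corresponds to adipocyte regulatory cells (Aregs), had at least 1 UMI of Clec11a and of Fmo2 and at most 1 of Fabp4 and of Dpp4. After the 49, 119 and 96 cells that met 2 gates were left out, there were 7399, 3169 and 9273 progenitors, 2278, 1394 and 1889 preadipocytes, and 270, 384 and 404 regulatory cells. Markers that were not gated on were then checked. The 6 progenitor markers summed to 2641 to 3717 CPM (counts per 1000000 UMIs) in progenitors and to 150 to 280 CPM in preadipocytes. The 5 preadipocyte markers summed to 6408 to 7996 CPM in preadipocytes against 678 to 928 CPM in progenitors, and the 4 regulatory markers to 2213 to 2884 CPM in regulatory cells against 170 to 243 CPM in progenitors. Regulatory cells and preadipocytes were less distinct from each other. Regulatory cells had 2093 to 2805 CPM of the preadipocyte markers, nearly as much as of their own, and preadipocytes had 615 to 970 CPM of the regulatory markers. Most of the first sum came from Lpl and Col4a1, at means of 1244 and 1141 CPM in regulatory cells. Pparg, Cd36 and Plin2 were at 5.89, 8.91 and 37.4 CPM there, against 49.8, 163 and 659 CPM in preadipocytes. All 5 were called lower in regulatory cells than in preadipocytes. In the second sum Cygb alone had a mean of 476 CPM. One of the 4 regulatory markers, Cygb, did not pass the test between them. The regulatory cells were the shallowest class, with a median of 4945, 10104.5 and 4575 UMIs against 7329, 12052 and 6690 in progenitors.

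Among the 3 gated classes, all 3 receptors were highest in progenitors and lowest in preadipocytes in every mouse. Nr4a3 was 13.7-fold, Nr4a2 9.51-fold and Nr4a1 4.73-fold higher in progenitors than in preadipocytes. Regulatory cells lay between these classes for each receptor. These are levels over all cells of a class, in which fewer expressing cells and less RNA per cell cannot be told apart. The median share of mitochondrial UMIs moved with the classes too, at 1.29%, 1.93% and 1.48% in the progenitors of mice 1, 2 and 3 and 1.67%, 2.69% and 2.01% in preadipocytes, with regulatory cells at 1.82%, 2.59% and 1.96%. Its part in the levels was not tested.

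Nr4a3 summed to 296, 400 and 427 CPM in the progenitors of mice 1, 2 and 3 (mean 375 ± 69.1, SD, n = 3 mice). It was at 18.7, 29.2 and 39.7 CPM in preadipocytes (29.2 ± 10.5) and at 43.5, 62.5 and 93.5 CPM in regulatory cells (66.5 ± 25.2). The lowest progenitor value was several times the highest value of either other class, and the ranges of regulatory cells and preadipocytes did not overlap. Progenitors exceeded preadipocytes by 3.78 on the log2 scale, with a standard error of 0.105 and an adjusted p of 6.60e-11 (quasi-likelihood test in edgeR on the sums per mouse, adjusted by the Benjamini-Hochberg method for 13258 genes). Of all genes tested, 56.4% passed the threshold of 0.05 in this comparison, 29.2% as higher in progenitors and 27.2% as higher in preadipocytes, so passing it is common. By size, Nr4a3 stood at place 152 from the top. The family was chosen with Nr4a3 and Nr4a2 known as leading genes of a progenitor cluster in these libraries. The p-values and places of the receptors in comparisons with progenitors are thus not independent of that choice.

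Nr4a2, the receptor known above all from dopamine neurons, was at 57.2, 85.2 and 68.0 CPM in progenitors (70.2 ± 14.1) and at 4.84, 9.13 and 9.28 CPM in preadipocytes (7.75 ± 2.53). The classes were far apart, and the log2 fold change reached 3.25 (standard error 0.177, edgeR, adjusted p = 1.28e-08), at place 233 of the genes tested. In regulatory cells it was at 52.0, 32.5 and 36.7 CPM (40.4 ± 10.3). The ranges of progenitors and regulatory cells nearly touched, since mouse 1 had 57.2 CPM in the first and 52.0 CPM in the second.

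Nr4a1, which is widely used as a reporter of recent antigen receptor signalling in lymphocytes, was at 494, 615 and 464 CPM in progenitors (524 ± 79.6). Preadipocytes had 103, 112 and 132 CPM (116 ± 14.6) and regulatory cells 240, 359 and 397 CPM (332 ± 81.9). No class overlapped another. Progenitors exceeded preadipocytes by 2.24 on the log2 scale (standard error 0.122, edgeR, adjusted p = 1.30e-08), at place 474.

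**Figure D1:**
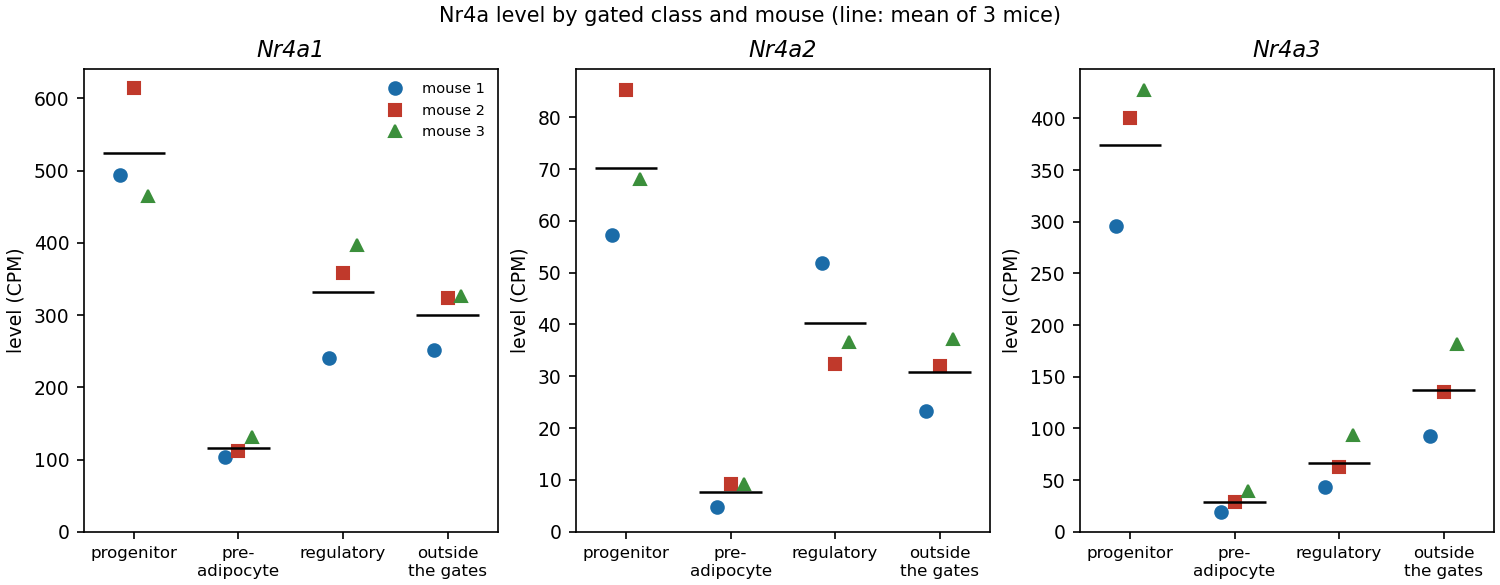
Level of Nr4a1, Nr4a2 and Nr4a3 in CPM (vertical axes, from 0) in each gated class and in the cells outside the gates, 1 point per mouse, with a line at the mean of the 3 mice. Progenitors are highest and preadipocytes lowest in each panel, and for Nr4a2 the regulatory cells of mouse 1, at 52.0 CPM, come close to the progenitors of the same mouse, at 57.2 CPM.

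Between progenitors and regulatory cells the difference was largest for Nr4a3. In log2 units it came to 2.54 (standard error 0.115, edgeR, adjusted p = 7.76e-09). For Nr4a1 it was 0.67 (standard error 0.123, edgeR, adjusted p = 0.000837). For Nr4a2 it was 0.91 (standard error 0.203, edgeR, adjusted p = 0.00323), and this call rests on mouse 2: without it the difference was 0.52 (edgeR, adjusted p = 0.116). It did not pass either when the classes of a mouse were not paired, at 0.84 (edgeR, adjusted p = 0.0567). Over all genes 42.9% passed in this comparison, 24.0% as higher in progenitors and 18.9% as higher in regulatory cells. Nr4a3 was at place 397 by size, Nr4a2 at 1550 and Nr4a1 at 2150, so Nr4a2 and Nr4a1 differed between these classes no more than many other genes did.

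Regulatory cells exceeded preadipocytes for all 3 receptors. The difference in log2 units was 2.34 for Nr4a2 (standard error 0.257, edgeR, adjusted p = 3.05e-05), 1.57 for Nr4a1 (standard error 0.127, edgeR, adjusted p = 2.33e-06) and 1.24 for Nr4a3 (standard error 0.127, edgeR, adjusted p = 1.73e-05). Here 25.7% of all genes passed, 12.3% as higher in regulatory cells and 13.4% as higher in preadipocytes, and the 3 receptors held places 302, 559 and 763. For Nr4a3 the regulatory cells of each mouse were nearer in CPM to its preadipocytes than to its progenitors. The 2988, 1348 and 3517 cells that met no gate had 252, 324 and 326 CPM of Nr4a1, 23.3, 31.9 and 37.2 CPM of Nr4a2, and 93.1, 135 and 182 CPM of Nr4a3, in each mouse between its progenitors and its preadipocytes.

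The same order was seen in the share of cells with at least 1 UMI. To compare classes at 1 depth, each cell was thinned to 3000 UMIs and shallower cells were left out. Nr4a1 was then detected in 64.7 ± 2.61% of progenitors (SD, n = 3 mice), 23.5 ± 1.67% of preadipocytes and 47.9 ± 6.27% of regulatory cells. The unthinned shares were 81.5%, 44.4% and 62.1%. Nr4a3 was detected in 44.8 ± 5.25%, 6.84 ± 2.64% and 15.8 ± 4.40% after thinning, and in 60.0%, 15.1% and 22.0% before it. Nr4a2 was a gene of few cells in every class. It was detected in 12.0 ± 1.49% of progenitors, 1.66 ± 0.380% of preadipocytes and 8.33 ± 1.42% of regulatory cells after thinning, and in 20.6%, 3.40% and 12.6% before it. The lowest share of all was that of Nr4a2 in the preadipocytes of mouse 1, where 30 of 2219 cells had a UMI (1.35%, 95% exact binomial interval 0.914 to 1.92).

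In mouse 1 the interval of the Nr4a2 share in regulatory cells, 4.81 to 12.7% from 209 cells, included the 10.3% of progenitors. In mouse 3 that interval, 6.68 to 13.8% from 295 cells, included the 12.7% of progenitors. In mouse 2 the interval was 4.55 to 10.3% from 342 cells, below the 13.1% of progenitors. The result in mouse 3 depended on the depth. At 2000 UMIs its interval was 2.99 to 7.79% from 360 regulatory cells, below the 9.52% of progenitors. In mouse 1 the interval at 2000 UMIs, 4.06 to 10.8% from 247 cells, still included the 7.71% of progenitors. Between progenitors and preadipocytes the thinned shares differed by 41.1 ± 3.54 percentage points for Nr4a1, 10.4 ± 1.29 for Nr4a2 and 38.0 ± 2.73 for Nr4a3, with the same sign in 3 of 3 mice. With 3 mice of 1 sign, an exact two-sided sign-flip test can give only p = 0.25, the smallest that 3 mice allow, so it could not decide. Free RNA in the droplets can give UMIs to cells that do not express a gene. No class of these cells is known to lack the Nr4a genes, so its part in the low shares of preadipocytes was not tested.

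**Figure D2:**
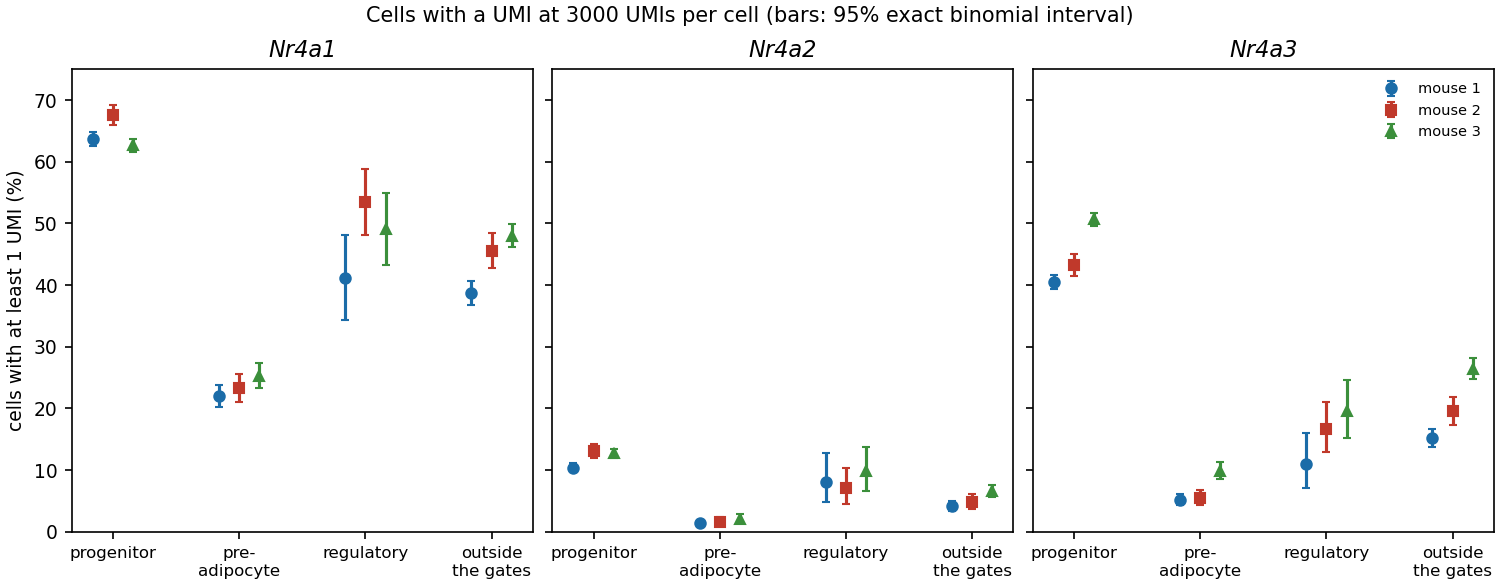
Share of cells with at least 1 UMI of each receptor (percent, vertical axis) by class, after each cell was thinned to 3000 UMIs, 1 point per mouse with its 95% exact binomial interval, which covers counting error only. Nr4a1 was found in most progenitors and Nr4a2 in few cells of any class, and the widest intervals are those of the regulatory cells, the smallest class.

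The receptors are part of a wider transcriptional response, the immediate early genes. Of 31 immediate early genes outside the family, 29 were tested. Between progenitors and preadipocytes 7 were higher in progenitors, 17 were lower and 5 did not pass, where 29.2% of all genes were higher and 27.2% lower. The share of higher genes was thus near that of all genes. The median log2 fold change was -0.36, against -0.00 over all genes. The fold changes of the 3 receptors lay above that of every gene of the list in this comparison, a place that their choice with earlier results known favours. The members of the list nearest to them were the AP-1 subunits Fosl2 at 2.09 and Fosl1 at 2.04, followed by Ier3, an early gene that modulates cell survival, at 1.17. Fosl1 was known beside Nr4a3 as naming a group of progenitors in these libraries. Its values in comparisons with progenitors are thus not independent of the choice either. Fos and Jun, which form the classical AP-1 dimer, were lower in progenitors, with log2 fold changes of -0.78 and -1.38. Lower still were the zinc-finger factors Egr2 at -2.25 and Egr3 at -2.49, the ERK phosphatase gene Dusp6 at -2.33 and Arc, best known from neurons, at -4.69. Egr1 at -0.19 and Junb at -0.01 did not pass.

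**Figure D3:**
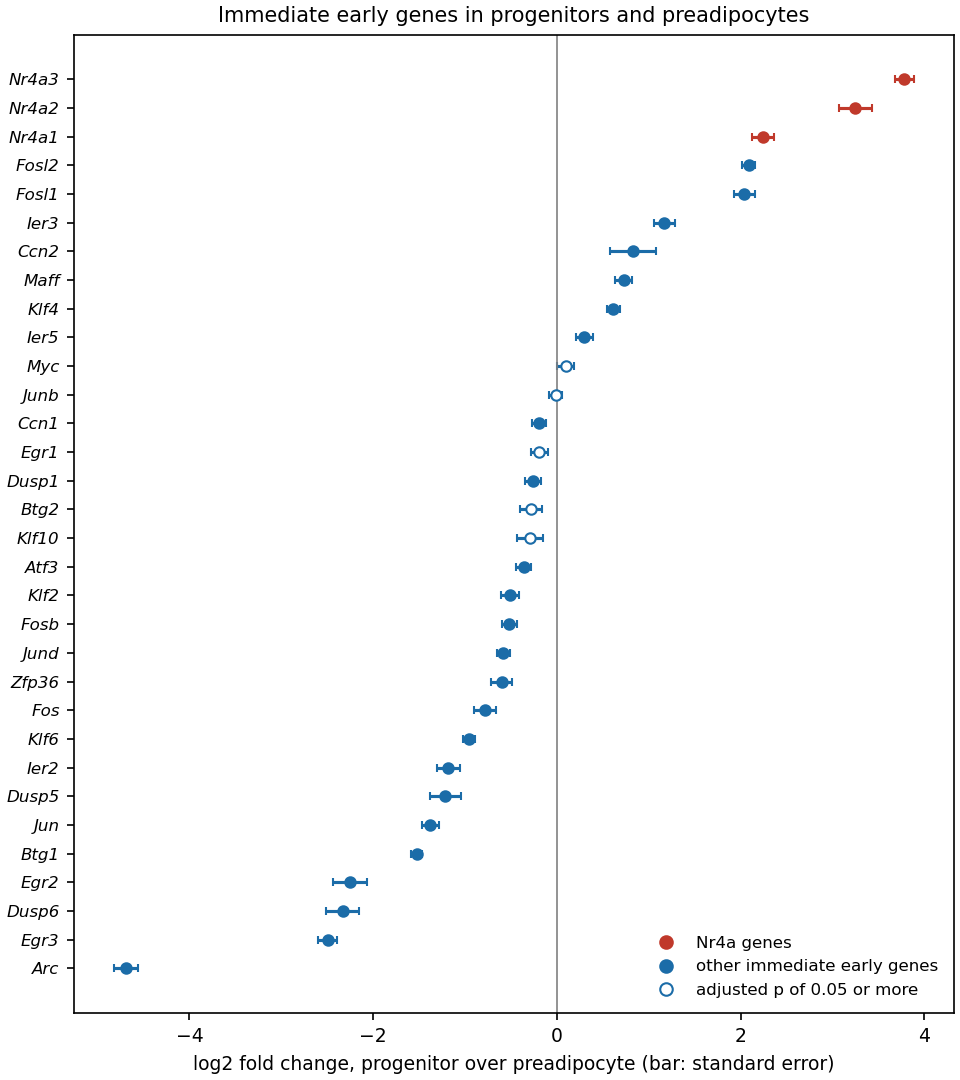
log2 fold change of progenitors over preadipocytes (horizontal axis, bars are standard errors) for the 3 Nr4a genes in red and the 29 tested immediate early genes in blue, where open points did not pass an adjusted p of 0.05. The receptors, chosen with earlier results of these libraries known, stand at 2.24 to 3.78, above the next genes Fosl2 at 2.09 and Fosl1 at 2.04. Fos, Jun, Egr2, Egr3 and Arc lie on the side of preadipocytes.

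Against regulatory cells the same list had 6 genes higher in progenitors, 13 lower and 10 that did not pass, where 24.0% of all genes were higher and 18.9% lower. Fosl1 was higher by 2.84 and Fosl2 by 1.51 on the log2 scale, and Nr4a3 lay between them at 2.54. Fos and Jun were lower, with log2 fold changes of -0.88 and -1.06. Between regulatory cells and preadipocytes 6 genes were higher in regulatory cells, 11 lower and 12 did not pass (12.3% and 13.4% of all genes). Of the AP-1 genes, Fosl2 was higher in regulatory cells by 0.58, as the receptors were, and Fosl1 was lower, at -0.80.

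Genes of the heat shock response, which is raised by warming and protein damage, were mostly lowest in progenitors and highest in preadipocytes. Of 12 listed, 11 were lower in progenitors than in preadipocytes and 1, the small heat shock protein Hspb1, was higher, where 27.2% of all genes were lower and 29.2% higher. Their median log2 fold change was -1.03. Against regulatory cells 9 were lower in progenitors and 1 was higher, with a median of -0.48 (18.9% and 24.0% of all genes). Between regulatory cells and preadipocytes 9 were lower in regulatory cells and 1 was higher, with a median of -0.42 (13.4% and 12.3% of all genes). Hspa1a, the main inducible chaperone, was at 506 CPM in progenitors and 1171 CPM in preadipocytes. The part of tissue dissociation in the levels of the receptors was not tested.

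A further list held 13 factors known to act on transcription of the Nr4a genes. Of these, 6 were higher in progenitors than in preadipocytes, 3 were lower and 4 did not pass. Over all genes 29.2% were higher and 27.2% lower. The share of lower genes was near that of all genes. The median of the list was 0.12. The cAMP response element modulator Crem had the largest difference. It was at 34.4, 45.9 and 43.3 CPM in progenitors, 12.6, 12.8 and 13.8 CPM in preadipocytes and 16.1, 14.6 and 22.2 CPM in regulatory cells. Progenitors overlapped neither class, and exceeded preadipocytes by 1.70 on the log2 scale (standard error 0.0934, edgeR, adjusted p = 1.38e-08). Mef2c, a calcium-regulated MADS-box factor, was higher by 1.26, and the CREB coactivator Crtc3 by 0.66. Creb1 itself was higher by 0.43, Crtc2 was lower, at -0.42, and so was serum response factor, Srf, at -0.63. Against regulatory cells 7 of the 13 were higher in progenitors, Crem by 1.29, and 1, Srf, was lower (24.0% and 18.9% of all genes). Between regulatory cells and preadipocytes 1, Mef2c, was higher by 0.92 and 12 did not pass, where 25.7% of all genes passed.

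A list of 8 genes held partners of members of the family, retinoid X receptors and corepressors. In progenitors 2 were higher than in preadipocytes, 2 were lower and 4 did not pass, with a median of 0.01. Over all genes 29.2% were higher and 27.2% lower, so the counts of partners were near those of all genes. The histone demethylase Kdm1a was higher by 0.55. The corepressor Ncor1 was lower, at -0.36. The retinoid X receptor Rxrg was the exception in size, at 0.528 CPM in progenitors and 9.93 CPM in preadipocytes, a log2 fold change of -4.14. Rxra, the widely expressed partner, was at 23.6 and 23.8 CPM and did not pass. Against regulatory cells Kdm1a was higher in progenitors, Rxrg was lower and 6 did not pass, where 42.9% of all genes passed. Regulatory cells had less Rxrg, Ncor1 and Rcor1 than preadipocytes, and the other 5 did not pass, where 13.4% of all genes were higher in preadipocytes.

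Of 11 genes reported elsewhere as targets of the family, 7 had enough counts to test. In progenitors 2 were higher than in preadipocytes, 4 were lower and 1 did not pass, with a median of -0.59, where 29.2% of all genes were higher and 27.2% lower. The share of higher targets was that of all genes. Ccnd1, the G1 cyclin, was at 42.3 CPM in progenitors and 13.8 CPM in preadipocytes, a log2 fold change of 1.69. The adhesion molecule Vcam1 was at 23.3 and 208 CPM, a log2 fold change of -3.08. Ucp1, the uncoupling protein of thermogenic adipocytes, was called higher but was near the limit of detection, at 2.06 CPM in progenitors and 0.0362 CPM in preadipocytes. Against regulatory cells 1 of the 7 was higher in progenitors and 2 were lower (24.0% and 18.9% of all genes), and between regulatory cells and preadipocytes 1 was higher in regulatory cells and 2 lower (12.3% and 13.4% of all genes).

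Within progenitors the receptors were spread unevenly. Nr4a1 was found in most cells: 20.8%, 12.1% and 22.4% of the progenitors of mice 1, 2 and 3 had no UMI of it, and the 10% of cells with most held 32.2%, 31.0% and 34.2% of its UMIs. Nr4a3 was less even, with no UMI in 46.0%, 37.9% and 36.2% of cells and 48.3%, 48.1% and 44.3% of its UMIs in the top 10%. Nr4a2 was concentrated in few cells. No UMI was counted in 83.2%, 75.2% and 79.8% of progenitors, yet single cells reached 37, 37 and 22 UMIs, and the top 10% held 83.6%, 80.0% and 77.5% of all.

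The receptors went together from cell to cell. Pearson's r of log(1 + UMIs per 10000) was taken over the 7399, 3169 and 9273 progenitors of each mouse. These are descriptions over cells that share a library and differ in depth. Nr4a3 and Nr4a2 were known as leading genes of the same progenitor cluster when the family was chosen. Their r, and the cells and leading genes that they share below, are thus not independent of that choice. For Nr4a1 and Nr4a3 r was 0.354, 0.398 and 0.224, for Nr4a2 and Nr4a3 it was 0.241, 0.337 and 0.222, and for Nr4a1 and Nr4a2 it was 0.189, 0.230 and 0.116. Each pair was above 0 in every mouse, and mouse 3 was lowest for all 3 pairs. Cells with a receptor were somewhat deeper than cells without it: in mouse 1 the median was 7619 UMIs in progenitors with Nr4a3 and 6937.5 in those without. The median mitochondrial share was lower in progenitors with Nr4a3 than in those without, 1.22% against 1.38%, 1.88% against 2.00% and 1.43% against 1.57%, and with Nr4a1, 1.25% against 1.46%, 1.91% against 2.09% and 1.45% against 1.60%. For Nr4a2 it was lower in mice 1 and 3 and higher in mouse 2. In cells thinned to 3000 UMIs the mean r over mice was 0.236, 0.197 and 0.131 for the same pairs, against 0.325, 0.267 and 0.178 before. For comparison, 95% of the 7927 other genes detected in at least 5% of progenitors had a mean r with Nr4a3 under 0.073 before thinning. The same limit was 0.055 for Nr4a1 and 0.039 for Nr4a2. These genes were not matched to the receptors by level.

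The same is seen in shares at 3000 UMIs. Nr4a3 was detected in 62.5%, 69.5% and 66.9% of progenitors with a UMI of Nr4a2, and in 38.0%, 39.3% and 48.3% of those without. Nr4a1 was detected in 75.4%, 80.2% and 69.1% of progenitors with Nr4a3 against 55.8%, 58.0% and 56.1% of those without. In each mouse a cell with 1 receptor thus more often had another. In cells that were not thinned, r of Nr4a1 and Nr4a3 in preadipocytes was 0.118, 0.146 and 0.184. In regulatory cells it was 0.179, 0.117 and 0.138, and both classes were lower than progenitors in each mouse. The other pairs did not keep this order. Nr4a2 and Nr4a3 had r of 0.294, 0.133 and 0.192 in regulatory cells, above the progenitors in mouse 1. Nr4a1 and Nr4a2 had 0.215, 0.131 and 0.106 there, above the progenitors in mouse 1. In preadipocytes they had 0.098, 0.139 and 0.124, above the progenitors in mouse 3. At 3000 UMIs, Nr4a1 and Nr4a2 in mouse 1 had 0.088 in regulatory cells and 0.137 in progenitors, so that excess was not kept. The excess of Nr4a2 and Nr4a3 in mouse 1 was kept, at 0.325 against 0.182. It rests on 209 regulatory cells, of which 17 had a UMI of Nr4a2 and 23 of Nr4a3. That of Nr4a1 and Nr4a2 in the preadipocytes of mouse 3 was kept too, at 0.115 against 0.074. There 38 of 1822 cells had a UMI of Nr4a2. With so few cells these r are imprecise, and no interval was computed for them. All 3 receptors were detected in a smaller share of preadipocytes and regulatory cells than of progenitors. The part of this in the differences of r between classes was not tested.

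The genes that went most closely with each receptor within progenitors were chosen by the highest mean r over the mice, so their r is given as a description. With Nr4a3 the highest was Fosl2, with r of 0.358, 0.510 and 0.315. It was followed by the histone methyltransferase Nsd3 (mean 0.363), the tRNA synthetase Eprs (0.362), Uap1, an enzyme of UDP-N-acetylglucosamine synthesis (0.362), and the early adipogenic factor Cebpb (0.361). The rest of the leading 10 were the ADP-ribosyltransferase Tiparp, the cap-binding protein Eif4e, the NF-kB subunit Nfkb1, the chromatin remodeller Smarca5 and emerin, Emd, with means of 0.359 to 0.347. Progenitors with a UMI of Nr4a3 had more Emd by 1.26 ± 0.167 on the log2 scale of CPM, and more Fosl2 by 0.87 ± 0.230. A mean r over 0.2 was reached by 63 of the 7927 genes with Nr4a3, by 14 with Nr4a1 and by 3 with Nr4a2. The receptors differ in level, with Nr4a2 found in the fewest cells, and the part of this in the counts was not tested.

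With Nr4a2 the highest was Nr4a3 itself, at a mean r of 0.267, then Eprs at 0.218 and Tiparp at 0.206. Its leading 10 shared 8 genes with those of Nr4a3: Cebpb, Eif4e, Emd, Eprs, Fosl2, Nsd3, Smarca5 and Tiparp. The lists were drawn from the same cells, in which the receptors themselves go together. With Nr4a1 the leading genes were mostly others. Errfi1, a feedback inhibitor of the EGF receptor, had r of 0.379, 0.425 and 0.236. Next to Nr4a3 came Junb (0.314), Fosl2 (0.302), Cebpb (0.262), Btg2 (0.249), Klf4 (0.242), Ifrd1 (0.242), the prostaglandin synthase Ptgs2 (0.240) and Csrnp1 (0.235). Only Cebpb and Fosl2 were also among the 10 of Nr4a3. Each of these leading genes kept a mean r above 0 in thinned cells.

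**Figure D4:**
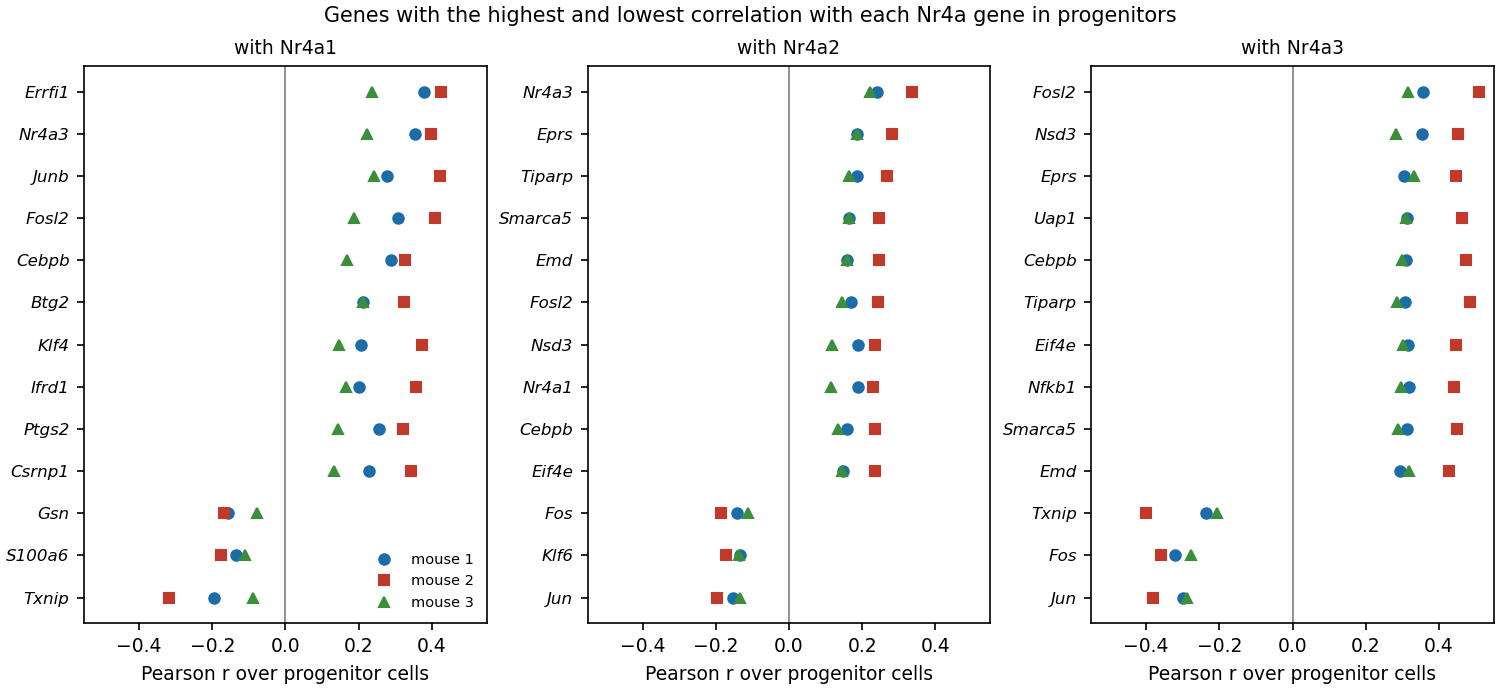
Pearson's r over progenitor cells (horizontal axis, 1 point per mouse) of the 10 genes with the highest and the 3 with the lowest mean r with each receptor. Fosl2 and Cebpb appear in all 3 panels, Nr4a2 and Nr4a3 share 8 of their 10 leading genes, and Jun and Fos stand among the lowest for Nr4a2 and Nr4a3.

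The lowest r with Nr4a3 were those of Jun (-0.299, -0.380 and -0.289), Fos (-0.320, -0.361 and -0.279) and Txnip, a glucose-responsive inhibitor of thioredoxin (-0.238, -0.401 and -0.206). With Nr4a2 the lowest means were Jun at -0.161, Klf6 at -0.148 and Fos at -0.146. With Nr4a1 they were Txnip at -0.201, S100a6 at -0.141 and gelsolin, Gsn, at -0.135, and r with Fos was of mixed sign, at -0.121, -0.008 and 0.063. Egr1, whose promoter answers to ERK signalling, differed in sign between the receptors. Its r with Nr4a1 was 0.103, 0.238 and 0.179, with Nr4a2 -0.077, -0.056 and -0.082, and with Nr4a3 -0.112, -0.089 and -0.190.

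Over the list, 26 immediate early genes were detected in at least 5% of progenitors. With Nr4a1, 12 were above 0 in every mouse and 2 below, with Nr4a2 9 and 14, and with Nr4a3 8 and 14. Over all 7927 genes, 26.7%, 20.7% and 22.9% were above 0 in every mouse for the 3 receptors in turn and 12.9%, 22.9% and 33.1% below. Of the 12 heat shock genes, 10 were below 0 in every mouse with Nr4a3 and 8 with Nr4a2, and 1, the co-chaperone Bag3, was above 0. With Nr4a1, 1 was above 0 in every mouse and none below. Of the 13 factors known to act on transcription of the family, 12 were detected in at least 5% of progenitors. Among these 12, Crem had the highest r with Nr4a3, at 0.119, 0.253 and 0.143.

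Ranking progenitors by Fos showed the size of the contrast. Each mouse's progenitors were ranked by Fos UMIs per 10000 and divided into 5 groups of equal size. From the lowest to the highest group, Nr4a3 fell from 524 to 117 CPM in mouse 1, from 704 to 157 in mouse 2 and from 593 to 178 in mouse 3. It declined at every step in each mouse. Nr4a2 went from 94.2 to 24.4, from 152 to 35.1 and from 86.4 to 30.7 CPM, with 1 step up, in mouse 3. Nr4a1 had no common trend, with 545 to 364, 556 to 631 and 369 to 445 CPM. The median depth of the groups differed little, between 7208 and 7565.5 UMIs in mouse 1.

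Ranking by Egr1 gave Nr4a3 449 to 203, 516 to 316 and 582 to 244 CPM from the lowest to the highest group, and Nr4a1 448 to 501, 451 to 880 and 323 to 550 CPM. Nr4a1 thus was higher in the highest Egr1 group where Nr4a3 was lower. Ranking by Hspa1a gave Nr4a3 376 to 179, 553 to 121 and 524 to 269 CPM, and Nr4a2 70.2 to 29.6, 135 to 25.7 and 79.9 to 46.2 CPM. Nr4a1 had no common direction there, with 516 to 416, 682 to 450 and 421 to 510 CPM. With Fosl1, Nr4a3 went the other way than with Fos. At 3000 UMIs, Nr4a3 was detected in 56.1%, 66.9% and 60.0% of progenitors with a UMI of Fosl1 against 37.2%, 37.6% and 46.5% of those without, and in 38.5%, 40.0% and 46.4% of progenitors with Fos against 57.9%, 58.2% and 61.5% of those without.

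**Figure D5:**
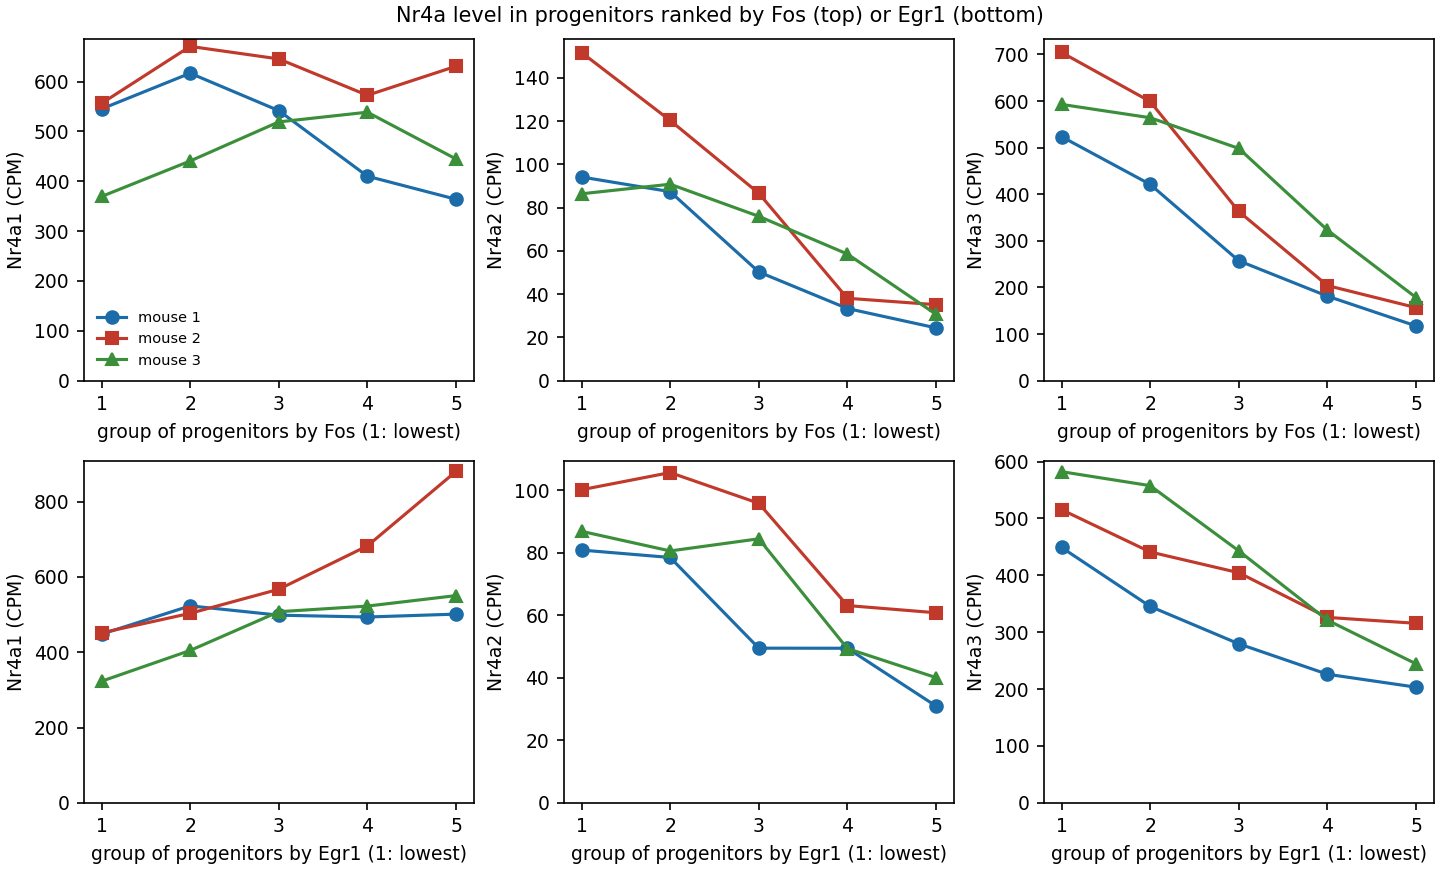
Level of each receptor (CPM, vertical axes, from 0) in the progenitors of each mouse, divided into 5 groups of equal size by Fos (top row) or Egr1 (bottom row), from the lowest at 1 to the highest at 5. Nr4a3 declines at every step in both rows, Nr4a2 ends lower than it starts, and Nr4a1 shows no common trend with Fos and ends higher than it starts with Egr1.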

How the data were processed

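Each mouse's library was deposited as UMI counts per gene and cell barcode. These counts were made by the authors with Cell Ranger from single-cell 3′ libraries and are not normalized. The file headers name version 4.0.0 of Cell Ranger and the submitters' processing notes name 2.1.1 and the build mm10. Of 32285 gene identifiers, 32158 were found in the GENCODE annotation of GRCm38. The 13698, 6872 and 16220 barcodes were reduced by the limits on genes and mitochondrial UMIs to cells with 94816520, 78108414 and 99328725 UMIs. Pairs of libraries shared 52, 81 and 64 barcodes. Doublets were not removed, apart from cells that met 2 gates. The 3 samples are 3 mice, as labelled.

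Counts were summed per mouse and class and tested in edgeR 4.0.16 under R 4.3.3 by its quasi-likelihood test, with the mouse as a block, after filterByExpr and TMM normalization, at an adjusted p of 0.05. The standard errors given with its log2 fold changes were derived from the test. Each is the size of the fold change divided by the square root of the F statistic. Classes of 1 mouse come from 1 animal, which is where the pairing comes from, and it was checked that they deviate together: after class means were removed, r between the classes of a mouse was 0.153 to 0.427, 0.383 to 0.676 and 0.245 to 0.522 over 13264 genes, which are not independent replicates. The procedure was tested on simulated data. Shares, correlations and ranked groups were computed with numpy 2.4.6, pandas 2.3.3 and scipy 1.17.1 in python 3.11.15, and figures were drawn with matplotlib 3.10.9. Intervals cover counting error only.

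The members, gates and lists were chosen with earlier results of these data known, and no list was tested as a set. The values of some listed genes are not reported here. Named genes are the receptors, listed genes by size of change (up to 6 a list), and the 10 highest and 3 lowest genes by mean r with each receptor among those in at least 5% of progenitors with 1 sign of r in every mouse. Outside this rule, Ier3, Fos, Jun, Egr1, Junb, Creb1, Crtc2, Rxra, Hspb1, Bag3, Cygb, Rara, Nr1h3 and Esr1, and Fosl1 and Fosl2 between regulatory cells and preadipocytes, were named after their values were seen. Alternatives were another normalization or test (DESeq2 1.42.0), no low-count filter, no replicate block, each mouse left out, up to 10% mitochondrial UMIs, stricter gates, thinned cells, and the 5% of cells with most UMIs removed. Cells of 2 gates kept in both was added after seeing the data.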

Additional observations from a re-analysis of the deposited data

How the results depend on the processing

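All 3 receptors kept their direction in every comparison of classes and under every alternative run, and each call held except that of Nr4a2 between progenitors and regulatory cells. Leaving out each mouse in turn gave 0.52 to 1.16 for it on the log2 scale, the lowest without mouse 2 (adjusted p = 0.116, edgeR). Without the replicate block it was 0.84 (adjusted p = 0.0567, edgeR). Over its alternatives, adjusted p was at most 0.116. The replicate block changed no other call of a receptor, but without it fewer genes passed in all, 3995 between progenitors and preadipocytes, 3130 between progenitors and regulatory cells and 1530 between regulatory cells and preadipocytes, against 7471, 5693 and 3403 with it. The last of these counts was 2177 in cells thinned to 3000 UMIs and 2052 to 2799 when each mouse was left out, the lowest without mouse 2. Both thinning and leaving out a mouse remove counts by construction. The differences in share between progenitors and preadipocytes moved with depth, to 37.0, 7.89 and 31.6 points for Nr4a1, Nr4a2 and Nr4a3 at 2000 UMIs and to 37.2, 17.2 and 44.8 points in unthinned cells, and that of Nr4a3 was 40.9 points with stricter gates. The mean r of Nr4a2 and Nr4a3 was 0.197 in thinned cells. Of the r values of named genes, 16 moved by more than the spread between mice in thinned cells, and none changed sign. The precision is limited by 3 mice, by the 209 to 342 regulatory cells per mouse with 3000 UMIs, and by the few cells with Nr4a2.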

Other observations

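Of 28 other nuclear receptors listed, 26 were tested. Between progenitors and preadipocytes 11 were higher in progenitors, 7 were lower and 8 did not pass, with a median log2 fold change of 0.12. Over all genes 29.2% were higher and 27.2% lower, so the share of lower receptors was that of all genes. Retinoic acid receptors parted from each other: Rarb was at 19.5 CPM in progenitors and 3.93 CPM in preadipocytes (log2 fold change 2.37), Rarg at 84.1 and 24.8 CPM (1.82), while Rara was lower in progenitors, at 16.4 and 25.2 CPM (-0.56). The clock repressor Nr1d2 was at 19.8 and 5.64 CPM (1.82). On the other side stood Pparg, the master regulator of adipocyte differentiation and 1 of the markers used to check the preadipocyte gate, at 3.44 and 49.8 CPM (-3.79), and the liver X receptor Nr1h3 at 13.8 and 34.6 CPM (-1.27).

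Against regulatory cells 10 of the 26 were higher in progenitors, 5 were lower and 11 did not pass (24.0% and 18.9% of all genes higher and lower). Nr2f2 (COUP-TFII), a repressor of adipogenesis, was at 113 CPM in regulatory cells, 55.8 CPM in preadipocytes and 15.8 CPM in progenitors, and its log2 fold change of progenitors over regulatory cells was -2.84. The estrogen receptor Esr1 was at 35.3 CPM in regulatory cells, 74.3 CPM in progenitors and 97.9 CPM in preadipocytes. Between regulatory cells and preadipocytes 3 were higher in regulatory cells, among them Nr2f2 by 1.08, and 3 were lower (12.3% and 13.4% of all genes). Within progenitors none of the 17 that were detected in at least 5% of cells had a mean r above 0.064 with Nr4a1, 0.038 with Nr4a2 or 0.052 with Nr4a3.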
